A study of Mus musculus with 8 samples.

Results

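The miR-200 family is a set of microRNAs (miRNAs, short RNAs that repress messenger RNAs) made from 5 hairpins in the mouse. Its members were taken by name, both arms of each hairpin, which gave 10 miRNAs of the 1881 mouse miRNAs on the array: the 3p and 5p arms of miR-200b, miR-200a, miR-429, miR-200c and miR-141. They were measured in exosomes, small vesicles released by cells, from the amniotic fluid of mice on 8 one-colour Agilent arrays. The LPS group of 4 arrays came from preterm births after 100 μg/kg of lipopolysaccharide (LPS), a bacterial wall component that provokes inflammation, given into the peritoneum at 14 days of pregnancy, with birth about 48 h later. The control group of 4 arrays came from cesarean sections. The labels name neither strain nor genotype. All 8 samples carry the label 17 days of pregnancy, which is later than the stated injection day plus 48 h, so whether the groups had the same gestational age is not settled. The labels also leave unstated whether the cesarean mice were injected and whether each array stands for a separate animal. The p-values below therefore measure the spread between these samples, which may be technical.

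In the cell a miRNA hairpin is cleaved to a short duplex, and usually one of its strands is kept in the silencing complex while the other is lost. The bases 2 to 8 of the kept strand, called the seed, do most of the pairing with target messages. The miR-200 family is known for its abundance in epithelial cells, where it represses Zeb1 and Zeb2, transcription factors that shut off E-cadherin and other epithelial genes. Zeb1 and Zeb2 in turn repress the transcription of both miR-200 clusters. Epithelia that border the amniotic cavity include the amnion, fetal skin, lung and urinary tract. The fluid mixes vesicles from many cells, so a change in the number of vesicles from one source and a change in miRNA per vesicle cannot be told apart here.

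The 3p arms are the strands bright enough to be tested on these arrays, and their mature sequences are shown because they divide the family into 2 seed groups. In RefSeq on GRCm38.p6, with the seed in capitals, the first group reads as follows.
mmu-miR-200b-3p: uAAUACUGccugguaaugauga
mmu-miR-429-3p: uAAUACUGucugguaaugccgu
mmu-miR-200c-3p: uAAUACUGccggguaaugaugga
The other group differs within the seed by the substitution U4C, counted from the 5′ end, with the base of miR-200b-3p first and that of miR-200a-3p last.
mmu-miR-200a-3p: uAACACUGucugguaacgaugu
mmu-miR-141-3p: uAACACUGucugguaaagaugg
No other mature mouse miRNA in the RefSeq table used here has either seed. Outside the seed the members stay close. miR-200b-3p and miR-200c-3p are identical at 20 of 22 compared bases, with U11G and A22G between them, and miR-200a-3p and miR-141-3p are also identical at 20 of 22, with C17A and U22G between them.

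The hairpins lie in 2 clusters, both on the minus strand, and each cluster holds members of both seed groups. On chromosome 4, Mir200b, Mir200a and Mir429 span 1846 bases. Their 3p arms are at chr4:156055685-156055706 (miR-200b-3p), chr4:156054911-156054932 (miR-200a-3p) and chr4:156053916-156053937 (miR-429-3p), all within the span of the long noncoding RNA gene Gm13648. On chromosome 6, Mir200c and Mir141 span 477 bases, with 3p arms at chr6:124718324-124718346 and chr6:124717917-124717938, and no other annotated gene overlaps either hairpin. The Mir200a hairpin at chr4:156054896-156054985 is shown whole, with its 5p and then its 3p arm in capitals, because its 5p arm is discussed below.
Mir200a: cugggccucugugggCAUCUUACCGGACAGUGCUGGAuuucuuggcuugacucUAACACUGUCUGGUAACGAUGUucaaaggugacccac

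Signals were background-subtracted spot intensities, divided on each array by the 75th percentile of 618 probes well above background on every array, then log2-transformed with a floor of 3.75, and the brightest probe stood for each miRNA. The arrays had from 405 to 519 miRNAs well above background in the LPS group and from 413 to 554 in the cesarean group. All 8 arrays sit on 1 slide, and its 2 rows coincide with the groups, so row and group cannot be told apart. Over the 470 miRNAs bright enough to test, 12 were higher and 11 lower in the LPS group at an adjusted p under 0.05 (limma, Benjamini-Hochberg), and the median log2 difference was -0.06. Markers of other cells were also measured. The log2 of the summed signal of the erythroid markers was 13.78 to 14.92 on LPS arrays, against 13.09 to 13.94 on cesarean arrays. It follows mainly miR-451a, which alone had 13.76 to 14.90 on LPS arrays and 13.06 to 13.92 on cesarean arrays. Of the erythroid markers, 1 of 3 tested, miR-144-3p, was called higher. miR-144-3p entered the test through the LPS arrays alone, with every cesarean array at the floor. For the leukocyte markers the log2 of the summed signal was 9.36 to 9.87 on LPS arrays and 9.48 to 9.84 on cesarean arrays. This sum follows mainly miR-223-3p, which alone had 8.90 to 9.55 on LPS arrays and 8.73 to 9.42 on cesarean arrays. Of 3 leukocyte markers tested, miR-142a-3p was called higher, with cesarean values of 3.75 to 4.26, at or near the floor. For the striated muscle markers the log2 of the summed signal was 6.47 to 10.29 on LPS arrays and 7.55 to 8.46 on cesarean arrays. The liver miRNA miR-122-5p had 5.04 to 9.81 on LPS arrays and 3.75 to 7.02 on cesarean arrays. None of the muscle and liver miRNAs, 4 in all, was called. In each of the 4, LPS arrays 1 and 3 lay above LPS arrays 2 and 4, and the SE of the log2 difference was 0.69 to 1.07. The lack of a call therefore does not show equal levels. The part of these cells in the results below was not tested.

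All 5 of the 3p arms had higher signals on LPS arrays than on cesarean arrays, by 1.89-fold to 2.83-fold, and in each of the 5 every LPS array lay above every cesarean array. Such a separation in this direction was seen in 9.79% of all tested miRNAs. Of the 5, miR-200b-3p, miR-200a-3p and miR-200c-3p passed the test, where 2.55% of all tested miRNAs were called higher, 2.34% lower and 4.89% in either direction. The median log2 difference of the 5 was 1.23, beside -0.06 for all tested miRNAs. None of the 5p arms was bright enough to test. The 5 tested arms did not enter through the LPS group alone, since 4 of them were well above background on all 8 arrays and miR-141-3p on 4 LPS and 3 cesarean arrays.

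miR-200c-3p, the AAUACUG-seed member of the chromosome 6 cluster, gave the widest separation of the 5. Its log2 signals were 9.13, 9.51, 9.29 and 8.95 on LPS arrays 1 to 4, against 7.60, 7.98, 7.61 and 8.01 on cesarean arrays 1 to 4. The groups did not overlap, and the lowest LPS array lay 0.94 above the highest cesarean array, a distance larger than the whole range of either group. It averaged 9.22 ± 0.24 in the LPS group and 7.80 ± 0.22 in the cesarean group (SD, n = 4 each), which is a log2 difference of 1.42 ± 0.23 (SE) or 2.68-fold, with an adjusted p of 0.0107 (limma, Benjamini-Hochberg over 470 miRNAs).
The call was lost without cesarean replicate 3 (adjusted p = 0.0554 by limma) and when the slide column entered the fit as a block (adjusted p = 0.0867 by limma), at log2 differences of 1.36 and 1.42. It was also lost without scaling between arrays (limma, adjusted p = 0.274) and with scaling to spike-in probes (limma, adjusted p = 0.542).

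miR-141-3p is cut from the neighbouring hairpin of the same chromosome 6 cluster and carries the other seed, AACACUG. It had the largest difference of the 5 and the most uneven values. Its log2 signals were 5.60, 6.91, 6.25 and 5.22 on the LPS arrays, against 4.48, 5.06, 3.88 and 4.56 on the cesarean arrays. The groups did not overlap, but the lowest LPS array was only 0.16 above the highest cesarean array, and the cesarean values lay near the floor. The means were 5.996 ± 0.74 in the LPS group and 4.49 ± 0.48 in the cesarean group (SD, n = 4 each), which is a log2 difference of 1.50 ± 0.39 (SE) or 2.83-fold, which did not pass the test (limma, adjusted p = 0.0567). Its difference depended on how probes were combined, being 0.46 ± 0.55 (SE) with the scanner software's total over probes.

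The chromosome 4 cluster gave 3 tested arms. miR-200b-3p, with the AAUACUG seed, had log2 signals of 10.06, 9.45, 9.59 and 9.09 on the LPS arrays, against 8.26, 8.56, 8.40 and 8.65 on the cesarean arrays. LPS array 1 was the highest of the 8, and the cesarean arrays lay within a narrow band below all LPS arrays. It averaged 9.55 ± 0.40 in the LPS group and 8.47 ± 0.17 in the cesarean group (SD, n = 4 each), which is a log2 difference of 1.08 ± 0.25 (SE) or 2.11-fold (limma, adjusted p = 0.0410).

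miR-200a-3p, with the AACACUG seed, had log2 signals of 7.80, 7.34, 7.48 and 6.74 on the LPS arrays, against 5.86, 6.53, 5.70 and 6.35 on the cesarean arrays. LPS array 1 was again the highest, and the gap between LPS array 4 and cesarean array 2 was small beside the spread within each group. The means were 7.34 ± 0.44 in the LPS group and 6.11 ± 0.39 in the cesarean group (SD, n = 4 each), which is a log2 difference of 1.23 ± 0.30 (SE) or 2.35-fold (limma, adjusted p = 0.0449).

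Both calls on the chromosome 4 cluster lay close to the threshold of 0.05. miR-200b-3p kept its call without LPS replicate 1 or 4 and lost it without any other array, where the adjusted p from limma was 0.0702 to 0.132. miR-200a-3p kept and lost its call with the same arrays, with an adjusted p from limma of 0.0592 to 0.134 where it was lost. With the slide column as a block the adjusted p was 0.17 for miR-200b-3p and 0.145 for miR-200a-3p (limma), at unchanged differences.

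miR-429-3p, the remaining AAUACUG-seed member, had log2 signals of 8.41, 8.21, 8.39 and 8.01 on the LPS arrays, against 7.19, 7.32, 7.11 and 7.75 on the cesarean arrays. Cesarean array 4 stood above the other cesarean arrays but below every LPS array. The means were 8.26 ± 0.19 in the LPS group and 7.34 ± 0.29 in the cesarean group (SD, n = 4 each), which is a log2 difference of 0.91 ± 0.23 (SE) or 1.89-fold, the smallest of the 5, which missed the threshold (limma, adjusted p = 0.0513). It passed without LPS replicate 1 (limma, adjusted p = 0.0433) and without LPS replicate 4 (limma, adjusted p = 0.0492).

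**Figure D1:**
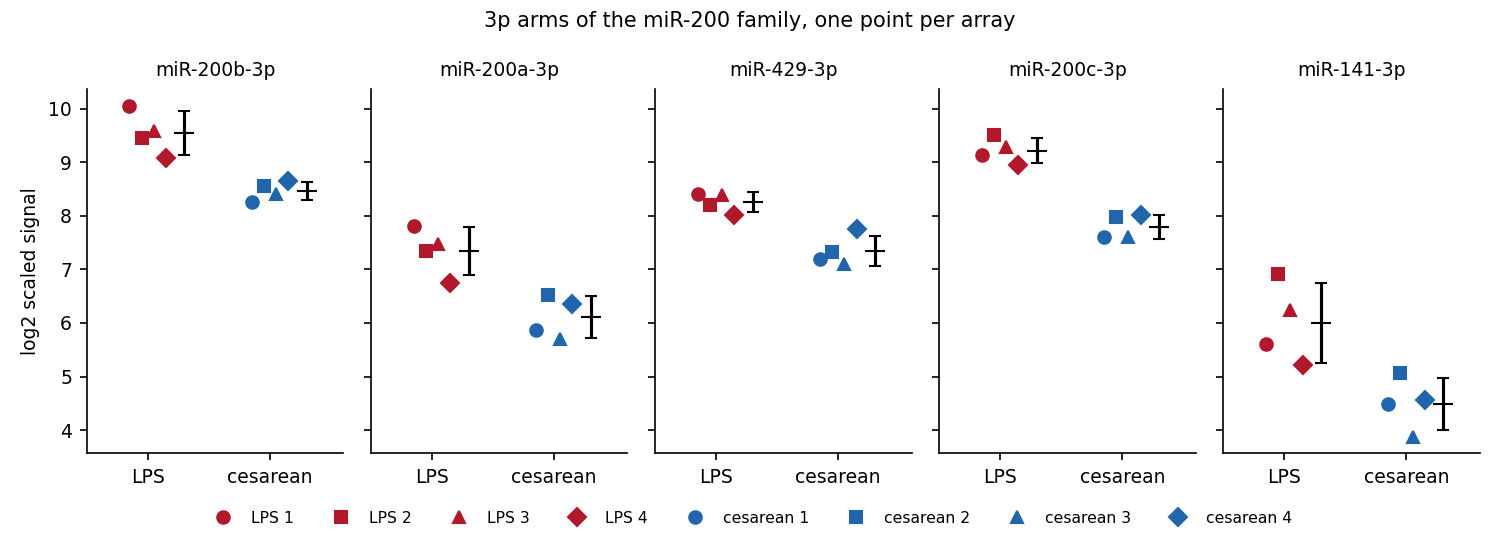
Log2 scaled signal (y axis) of the 5 tested 3p arms, one panel each, with LPS arrays in red on the left and cesarean arrays in blue on the right of a panel, a marker shape per replicate number, and the mean ± SD (n = 4) as a black bar. In each panel all 4 LPS arrays lie above all 4 cesarean arrays, and heights should not be compared between panels because they come from different probes.

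The authors' own normalized log2 values gave the same picture for the 3p arms. They come from the same 8 arrays, so they show how little the differences depend on the normalization and are not independent support. In the authors' deposited table miR-200c-3p had 8.77, 9.15, 9.06 and 8.56 on the LPS arrays, against 7.22, 7.67, 7.31 and 7.68 on the cesarean arrays. The groups were again apart, with a log2 difference of 1.41. miR-141-3p had 5.04, 5.89, 5.46 and 4.35 on the LPS arrays, against 3.48, 4.14, 3.17 and 3.62 on the cesarean arrays in the authors' deposited table, a log2 difference of 1.58. The other differences from the authors' deposited table were 1.09 for miR-200b-3p, 1.41 for miR-200a-3p and 0.90 for miR-429-3p, and none of these groups overlapped. The share of all miRNAs in that table whose groups separate was not counted. When this table was tested with limma over the same 470 miRNAs, all 5 members passed, where 4.04% of the 470 were called higher. Over all 1881 miRNAs of that table without a filter only miR-200c-3p passed (limma, adjusted p = 0.0456), where 0.159% were called higher, and the other 4 members had an adjusted p of 0.0829 to 0.172 (limma).

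Each 3p arm was read by 2 probes, DNA strands of 15 to 19 bases that pair with the 3′ end of the miRNA. Because the probes begin to pair after the first bases, and all but the 19-base probe of miR-429-3p start past base 4, they do not read the seed position that separates the 2 seed groups. The members differ further along, where the closest other member has 2 different bases within the probe, or 3 to 4 for miR-429-3p. For miR-200b-3p, miR-200a-3p and miR-141-3p, 1 of these 2 is the last base, 22. Whether a probe also pairs with close members was not tested. All 10 tested probes had the higher mean in the LPS group, by 0.68 to 1.50 on the log2 scale. Of these, 9 were well above background on at least 3 arrays of both groups, and in all 9 the groups did not overlap, where 8.91% of the 887 tested probes separated in this direction. The other, a probe of miR-141-3p described below, entered through the LPS arrays alone. A probe-level fit called 7 of the 10 higher, where 2.82% of all tested probes were called higher (limma). Probes of 1 miRNA share its molecules and are not replicates.

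Within a miRNA, the probe pairs gave similar sizes in 4 of 5 cases. The log2 differences were 1.06 and 1.08 for miR-200b-3p, 1.23 and 1.35 for miR-200a-3p, 0.91 and 0.89 for miR-429-3p, and 1.37 and 1.42 for miR-200c-3p. The exception was miR-141-3p, whose 2 probes differ by a single added base at the 3′ end, shown in capitals in the longer one, with the last base of the shorter in capitals as well.
miR-141-3p 16-base probe: ccatctttaccagacA
miR-141-3p 17-base probe: ccatctttaccagacaG
The 17-base probe gave the 1.50 reported above (limma at probe level, adjusted p = 0.0523), and the 16-base probe gave 0.68 ± 0.32 (SE; limma, adjusted p = 0.218). The shorter probe was well above background on 3 LPS arrays and 1 cesarean array and stood at the floor on all 4 cesarean arrays, so its difference and its separation are set by the floor.

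**Figure D2:**
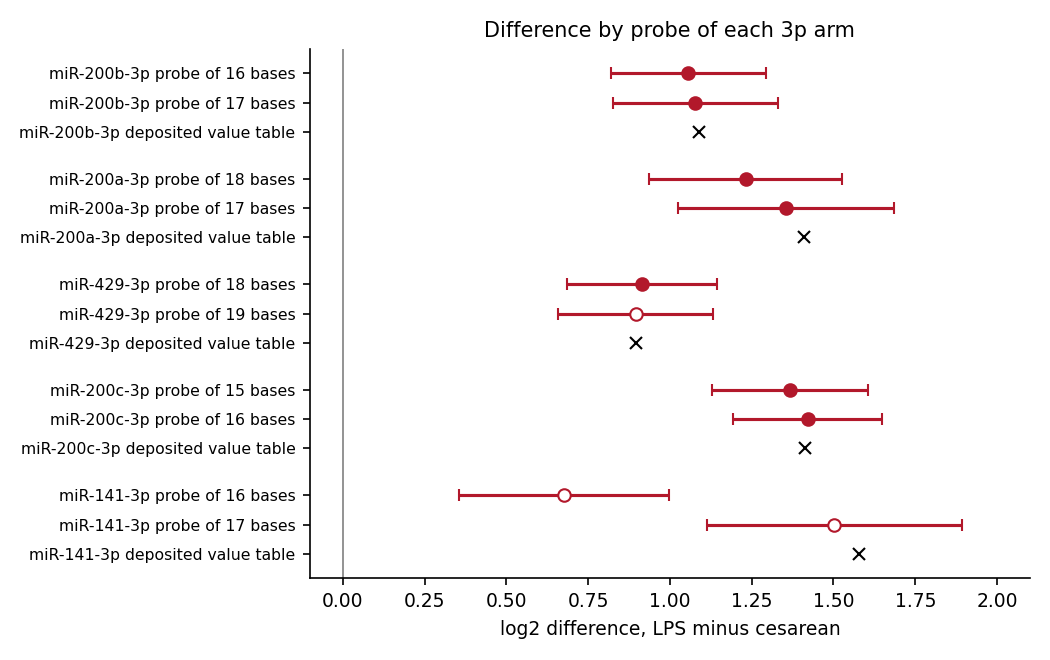
Log2 difference, LPS minus cesarean (x axis), for each probe of the 3p arms as a circle with its SE, filled where the adjusted p was under 0.05, and for the authors' deposited table as a cross. Probes of 1 miRNA lie close together except for miR-141-3p, where the 16-base probe gave 0.68 and the 17-base probe 1.50.

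The 2 clusters did not peak on the same array. To set members beside each other despite their different probes, each was expressed as its log2 signal minus its own mean over the cesarean arrays. The mean of the 3 chromosome 4 members was 1.45, 1.03, 1.18 and 0.64 on LPS arrays 1 to 4, and -0.20, 0.16, -0.24 and 0.28 on cesarean arrays 1 to 4. The mean of the 2 chromosome 6 members was 1.22, 2.07, 1.62 and 0.94 on LPS arrays 1 to 4, and -0.10, 0.37, -0.40 and 0.14 on cesarean arrays 1 to 4. LPS array 1 was the highest for miR-200b-3p and miR-200a-3p, LPS array 2 for both members of chromosome 6, and LPS array 4 the lowest LPS array for all 5. For miR-429-3p LPS arrays 1 and 3 were nearly level, with array 1 slightly higher on the probe used and array 3 slightly higher on the other probe and in the authors' deposited table.

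The chromosome 6 mean minus the chromosome 4 mean was -0.23, 1.04, 0.44 and 0.30 on LPS arrays, against 0.10, 0.21, -0.17 and -0.14 on cesarean arrays. The groups overlapped in this difference, because LPS array 1 was the lowest of the 8 and LPS arrays 2, 3 and 4 were the highest. The authors' deposited table gave -0.146, 0.96, 0.42 and 0.23 on LPS arrays 1 to 4, against 0.086, 0.19, -0.12 and -0.154 on cesarean arrays 1 to 4. The groups overlapped there too, with LPS array 1 inside the cesarean range. In the values used here the scaling factor of an array cancels in this difference, and none of the values in it was at the floor. The authors' method is not given, so whether their normalization cancels in theirs is not known.

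Described over the 8 arrays, Pearson's r was 0.92 to 0.97 for the 4 pairs of members within a cluster and 0.77 to 0.95 for the 6 pairs between clusters. All members share the arrays and their scaling, and the difference between the groups adds to every r. With each member taken as its deviation from its own group means, r was 0.72 to 0.87 within a cluster (median 0.81) and 0.16 to 0.66 between clusters (median 0.45). This pattern was seen on the LPS arrays and not on the cesarean arrays. On the 4 LPS arrays alone r was 0.89 to 0.99 within a cluster and 0.08 to 0.42 between clusters, while on the 4 cesarean arrays alone it was 0.66 to 0.82 within and 0.39 to 0.95 between. miR-200a-3p had a deviation r of 0.87 with its cluster partner miR-200b-3p and 0.52 with its seed partner miR-141-3p, but on the cesarean arrays alone the order was the other way, at 0.79 and 0.89. These are descriptions over 4 or 8 arrays, with no test.

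**Figure D3:**
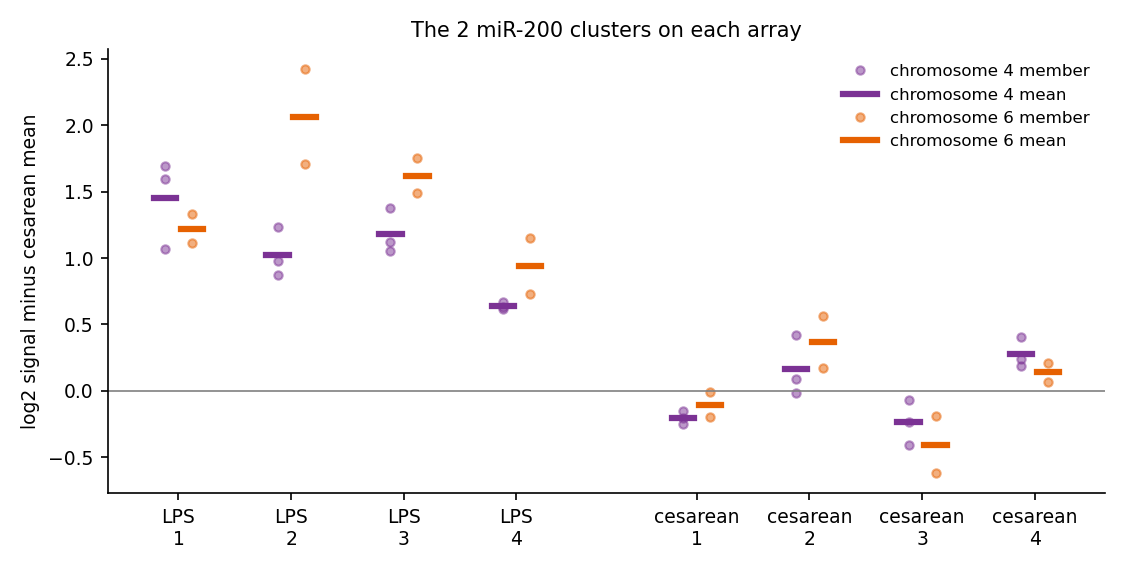
Log2 signal of each tested 3p arm minus its own cesarean mean (y axis) on each array, LPS arrays on the left and cesarean arrays on the right, with purple for the 3 members of chromosome 4, orange for the 2 of chromosome 6, and a line at each cluster's mean. The chromosome 6 mean is above the chromosome 4 mean on LPS arrays 2, 3 and 4 and below it on LPS array 1.

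The 5p arms are the strands opposite these in each duplex, and none of their 18 probes passed the filter. Their sequences are given with the seed in capitals, since only miR-200b-5p and miR-200a-5p share one.
mmu-miR-200b-5p: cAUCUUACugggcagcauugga
mmu-miR-200a-5p: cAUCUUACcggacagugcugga
mmu-miR-429-5p: gUCUUACCagacaugguuaga
mmu-miR-200c-5p: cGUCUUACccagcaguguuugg
mmu-miR-141-5p: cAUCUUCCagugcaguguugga
Of the 18 probes, 14 were well above background on no array. miR-200b-5p had a probe well above background on 2 LPS arrays and 1 cesarean array, and miR-200a-5p on 1 LPS array and 1 cesarean array. miR-429-5p, miR-200c-5p and miR-141-5p had none on any of the 8 arrays. No 5p arm could therefore be given a fold change, and a test of the balance between the arms of a hairpin was not possible.

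Before the floor, the brightest miR-200b-5p probe had scaled signals of 18.1, 15.4, 15.0 and 10.5 on the LPS arrays, against 12.0, 10.74, 8.36 and 12.0 on the cesarean arrays. The groups overlapped through LPS array 4, and 5 of the 8 values lay under the floor of 13.5. The 16-base miR-200a-5p probe had 10.9, 9.95, 10.4 and 11.1 on the LPS arrays, against 9.58, 6.93, 7.70 and 7.47 on the cesarean arrays. These groups did not overlap, nor did those of the 15-base probe, while the 14-base probe overlapped, with 5.29, 7.80, 7.40 and 8.41 on the LPS arrays, against 8.22, 4.34, 4.88 and 4.91 on the cesarean arrays. For miR-141-5p the 16-base probe had 3.35 to 6.15 on the LPS arrays, against 1.27 to 2.20 on the cesarean arrays. Its 17-base probe had 5.56 to 6.68 against 0.98 to 3.44, so neither of these overlapped. The remaining miR-141-5p probes did overlap. The 14-base probe had -3.75 to 0.06 on the LPS arrays, against -4.32 to -1.04 on the cesarean arrays. For the 15-base probe the signals were -1.46 to 1.61 against -1.17 to -0.05. All values of the 3 miR-200a-5p probes and of the 4 miR-141-5p probes lay under the floor and have no order by the rule used here. How many other probes separate in this way under the floor was not counted.

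In the authors' deposited table, which sets no such floor, miR-200a-5p had 3.57, 3.03, 3.31 and 3.05 on the LPS arrays, against 2.99, 2.84, 2.81 and 2.66 on the cesarean arrays. The groups did not overlap, with a log2 difference of 0.42 ± 0.13 (SE) that did not pass limma over all miRNAs of that table (adjusted p = 0.283). The share of all miRNAs there that separate in this way was not counted. miR-200b-5p had 3.11, 2.94, 2.96 and 2.55 on the LPS arrays, against 2.77, 2.55, 2.50 and 2.61 on the cesarean arrays in the authors' deposited table. Its groups overlapped, at a difference of 0.28 (limma, adjusted p = 0.474). miR-141-5p differed by 0.16 in the authors' deposited table (limma, adjusted p = 0.404), and miR-429-5p and miR-200c-5p, which lay near 2 on every array, by 0.01 and -0.00.

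Outside the family, the miRNAs whose signals ran most like it were found by Pearson's r over the 8 arrays with the mean of the 5 tested members. The members themselves had r of 0.93 to 0.98 with that mean, which contains them, and 17 of 465 other miRNAs had r over 0.9. The 5 nearest were miR-136-5p (r = 0.97), miR-23b-3p (0.97), let-7i-5p (0.95), miR-194-5p (0.93) and miR-155-5p (0.93), which share the arrays and scaling with the family.

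The family mean holds the difference between the groups, so this choice favours miRNAs with the same difference, and their own differences are given as a description. miR-155-5p, which immune cells make after LPS, had log2 signals of 6.74, 6.997, 7.23 and 6.45 on the LPS arrays, against 5.93, 5.95, 5.62 and 5.56 on the cesarean arrays. All LPS arrays were above all cesarean arrays, as the choice made likely. miR-23b-3p differed by 0.89, let-7i-5p by 0.87 and miR-136-5p by 0.88 on the log2 scale. miR-136-5p was at the floor on cesarean arrays 1 to 3, so its difference and its r rest on floored values.

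Since the family is known as an epithelial one, 13 other miRNAs known from epithelia were set beside it. This list was chosen with earlier results of these data known, so its counts are a description and not independent support. Of the 13 miRNAs, 10 were tested with limma and 2 rose, where 2.55% of all tested miRNAs were called higher. At an unadjusted p under 0.05, 5 were higher (13.8% of all tested miRNAs were) and none lower, and the same 5 did not overlap between the groups (9.79% of all tested). Among these 5, miR-215-5p and miR-96-5p entered the test through the LPS arrays alone. The 5 are not separate units. miR-192-5p, miR-194-5p and miR-215-5p are linked by shared transcription or seed, and miR-183-5p and miR-96-5p come from 1 cluster. Another member of that cluster, miR-182-5p, overlapped between the groups, at a log2 difference of 0.38 ± 0.46 (SE; limma, adjusted p = 0.661). In all, 9 had the higher mean in the LPS group, where 45.5% of all tested miRNAs did. Their median log2 difference was 1.04, with a range from -0.17 to 2.18. The 2 that rose were miR-194-5p and miR-192-5p, which are transcribed together. miR-194-5p, known from intestine, kidney and liver epithelium, had log2 signals of 6.09, 6.74, 6.96 and 6.16 on the LPS arrays, against 4.44, 4.05, 3.75 and 4.97 on the cesarean arrays. Its groups did not overlap, and cesarean array 3 was at the floor, on which the log2 difference of 2.18 ± 0.32 (SE; limma, adjusted p = 0.0107) partly depends. miR-192-5p had 7.58, 7.49, 7.98 and 7.61 on the LPS arrays, against 6.40, 6.12, 6.48 and 6.87 on the cesarean arrays. Its groups did not overlap, at a log2 difference of 1.20 ± 0.24 (SE; limma, adjusted p = 0.0268).

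miR-183-5p, known from sensory and other epithelia, had 6.98, 7.60, 7.03 and 7.07 on the LPS arrays, against 5.41, 6.50, 5.76 and 6.65 on the cesarean arrays, a difference of 1.09 ± 0.32 (SE) that did not pass (limma, adjusted p = 0.0702). miR-215-5p, which shares its seed with miR-192-5p, was well above background on no cesarean array and gave an adjusted p of 0.0771 (limma). The skin miRNA miR-203-3p had 10.72, 6.75, 8.56 and 6.88 on the LPS arrays, against 6.24, 6.90, 6.84 and 6.96 on the cesarean arrays. LPS arrays 1 and 3 were high and the other 2 LPS arrays lay within the cesarean values, and the difference of 1.49 ± 0.75 (SE) did not pass (limma, adjusted p = 0.241). Another skin miRNA, miR-205-5p, had a difference of -0.17 ± 0.63 (SE; limma, adjusted p = 0.901).

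The 12 miRNAs chosen for their link with mesenchymal cells, the cell state in which Zeb1 and Zeb2 are active, included 11 that were tested. None of them passed limma, and at an unadjusted p under 0.05 there were 5 lower and 1 higher, where 11.3% of all tested miRNAs were lower and 13.8% higher. Their median log2 difference was -0.43, with a range from -1.34 to 0.71. In 4 of the 11 all LPS arrays lay below all cesarean arrays, which 7.23% of all tested miRNAs did, and in 1 all lay above. In both counts of lower miRNAs, all but miR-125b-5p come from the related miR-199 and miR-214 hairpins, so they are not separate units. miR-214-3p had 7.79, 7.12, 7.90 and 7.02 on the LPS arrays, against 8.36, 9.60, 8.09 and 9.16 on the cesarean arrays. Every LPS array was below every cesarean array, at a difference of -1.34 ± 0.37 (SE; limma, adjusted p = 0.064). Its cluster partner miR-199a-5p differed by -1.03 ± 0.28 (SE; limma, adjusted p = 0.064), while miR-145a-5p, known from smooth muscle, differed by 0.71 ± 0.29 (SE; limma, adjusted p = 0.166). The mesenchymal list too was chosen with earlier results of these data known, so its counts are a description. Whether the family moved differently from either list was not tested.

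**Figure D4:**
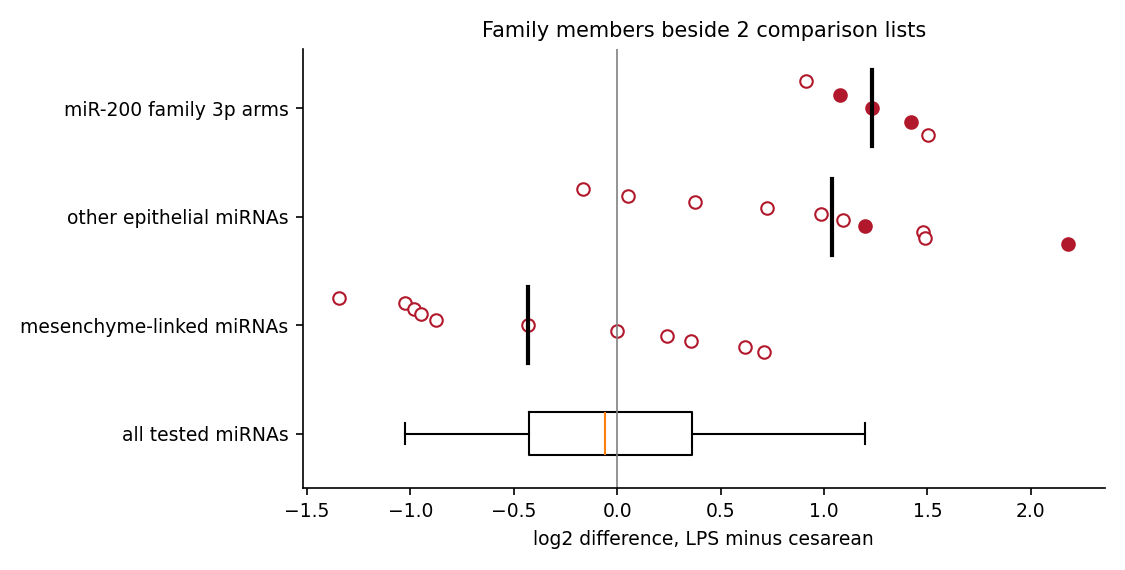
Log2 difference, LPS minus cesarean (x axis), for the tested members of the miR-200 family, of the other epithelial list and of the mesenchyme-linked list, one circle each, filled where the adjusted p was under 0.05, with the median as a black line. The box below shows all 470 tested miRNAs with its quartiles and whiskers at percentiles 5 and 95, and all 5 family members lie to the right of 0.9.

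Over 23 other settings, 8 of which left out 1 array, every one of the 114 differences obtained for the 5 members was positive. With 1 array left out the sign was fixed in advance, because the groups did not overlap in any of the 5. The slide-column block, limma with trend and the changes of filter on the main values left the differences unchanged, so they could not reverse a sign either. The differences of miR-200c-3p ranged from 1.21 to 1.52 and passed in 19 of 23 settings. Those of miR-200b-3p ranged from 0.91 to 1.23, of miR-200a-3p from 0.81 to 1.43, of miR-429-3p from 0.72 to 1.05 and of miR-141-3p from 0.46 to 1.76, and they passed in 11, 10, 9 and 4 settings in that order. No member passed without scaling between the arrays, where the SE of the members was 0.44 to 0.54 in place of 0.23 to 0.39.

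**Figure D5:**
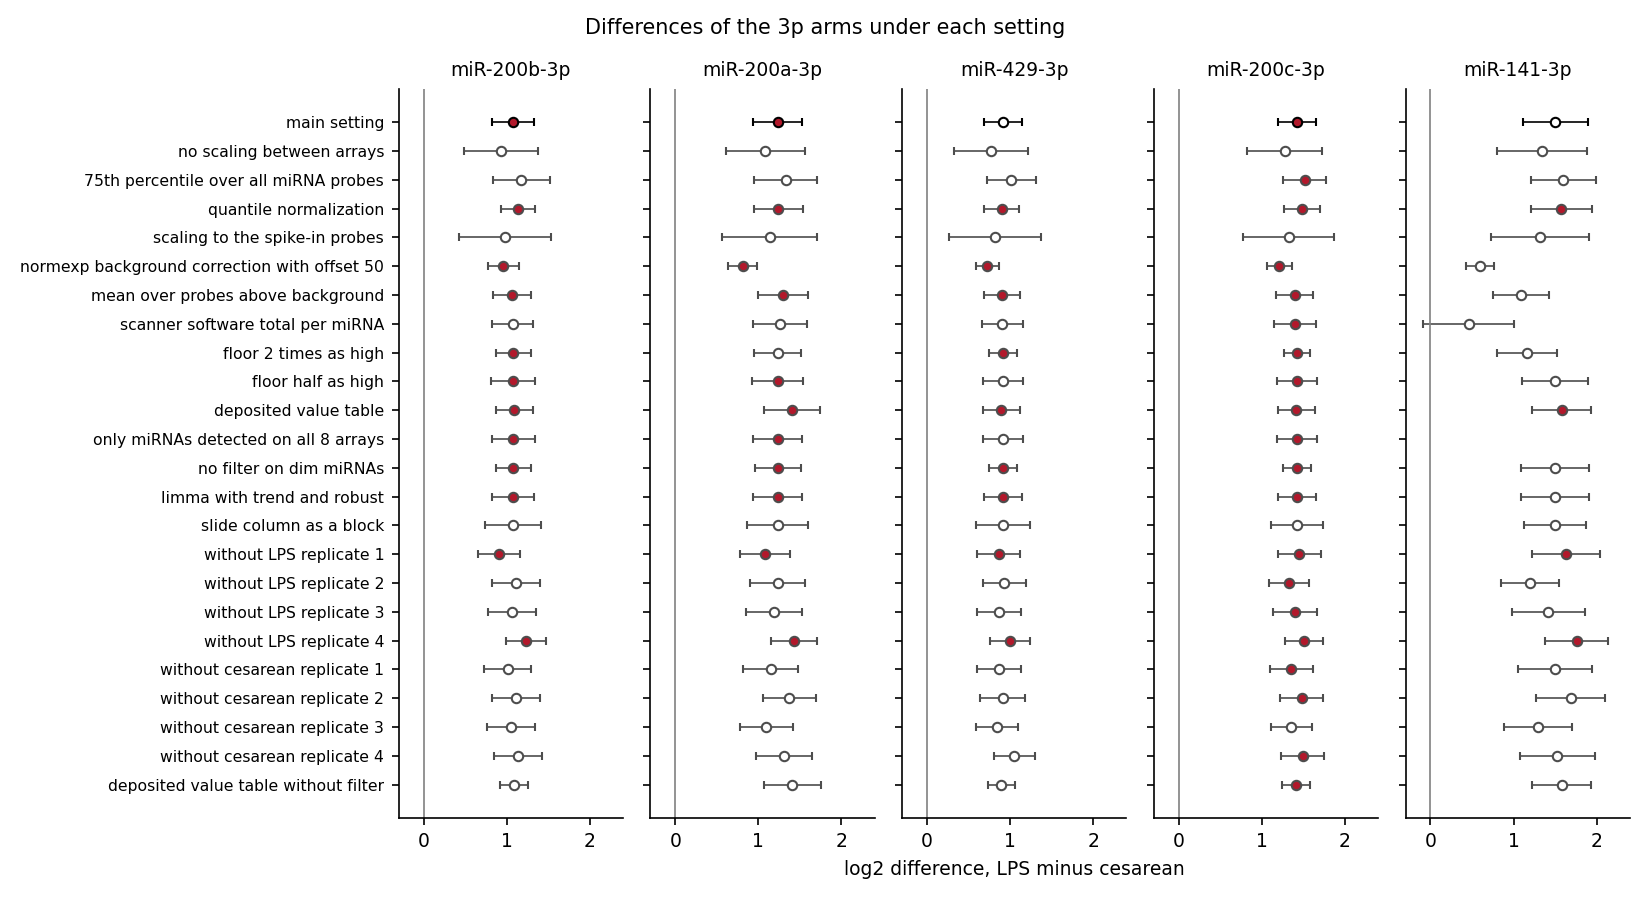
Log2 difference, LPS minus cesarean (x axis, with SE), of each tested 3p arm under the setting used in the text (top) and under each alternative, filled where the adjusted p was under 0.05. All points lie to the right of 0, miR-200c-3p is filled in most settings, and miR-141-3p has its lowest value, 0.46, with the scanner software's total per miRNA.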

How the data were processed

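Exosomes were isolated by size-exclusion chromatography per the labels' protocols, and RNA was labelled with Cy3. The labels describe Cy3 cRNA from a linear amplification kit, a product made from messenger RNA, and do not say how miRNAs took up the dye. Agilent Feature Extraction made the deposited intensity per spot, background-subtracted but not scaled between arrays, as version 10.7.1.1 per the file headers and 9.1 per the submitters' processing notes. The authors also deposited a table of normalized log2 values, made by a method the sources used here do not give. Each of its 8 columns correlated best with its own array (r from 0.958 to 0.964, across 336 miRNAs).

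Control spots and spots marked as outliers or non-uniform were left out (3.00% to 3.48% of miRNA spots), and no spot was saturated. A probe needed a share of at least 0.5 of its spots well above background by the scanner software to count as such. Probe means below 13.5, the median over arrays of the lowest scaled signal well above background, were raised to it. A miRNA was tested if well above background on at least 3 of 4 arrays of either group. limma 3.58.1 in R 4.3.3 was fitted over all tested miRNAs (lmFit, eBayes, two-sided) with Benjamini-Hochberg adjustment at 0.05, and the code was tested on simulated data. The number of arrays limits the precision. Named were all members, the 5 nearest miRNAs, and up to 4 per comparison list by smallest p. miR-205-5p, miR-203-3p, miR-96-5p, miR-182-5p, miR-145a-5p and the cell markers miR-451a and miR-223-3p were singled out after their values were seen. The members and lists were chosen with earlier results of these data known. Sequences and positions are from RefSeq (GRCm38.p6), which matched 10 of 10 members. Tables and plots used the data.table package (1.17.8), Python 3.11.15, numpy 2.4.6, pandas 2.3.3 and matplotlib 3.10.9.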

Additional observations from a re-analysis of the deposited data

Results flagged for a closer look

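miR-200a-5p, the strand opposite miR-200a-3p, was not well above background on enough arrays to be tested, yet in the authors' deposited table its values on the 4 LPS arrays all lay above those on the 4 cesarean arrays, by 0.419 on the log2 scale. It is given here because that table was outside the measurement used for the comparisons. The difference did not pass limma over all miRNAs of that table (adjusted p = 0.283). The share of them that separate in this way was not counted. In the scanner signals, all under the floor, the 14-base probe of miR-200a-5p overlapped between the groups. The scanner software's own detection call was positive for miR-200a-5p on 4 LPS arrays and 2 cesarean arrays, and for miR-200b-5p on 4 LPS arrays and 3 cesarean arrays. No array stood apart from the rest of its group in any of the 5 tested members by Dixon's criterion at the 95% level.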

How the results depend on the processing

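No difference of a family member changed direction under any of the 23 alternatives. For the 8 that left out 1 array, this was fixed in advance by the separation of the groups. Of the 114 values, 29 lost a call and 13 gained one. The main setting called 23 miRNAs, 3 members and 7 of 10 member probes. Without scaling the counts were 1, 0 and 0, with slide column as the block 1, 0 and 0, and with scaling to the spike-in probes 1 miRNA and 0 members. The 75th percentile over all miRNA probes gave 14 and 1, quantile normalization 37 and 5, the scanner software's total 6 and 1, the values the authors deposited gave 30 and 5, and, without a filter (chosen after seeing the data), 5 of 1881 and 1. Normexp gave 15 miRNAs, and a filter for detection on all 8 arrays 15 of 336. With 1 array left out, the counts ranged from 3 to 79 miRNAs, from 0 to 5 members and from 0 to 8 member probes. They were 79, 5 and 8 without LPS replicate 1 and 3, 0 and 0 without cesarean replicate 3. Where 1 member was called, it was miR-200c-3p. The cause of these changes was not tested. The median difference of all miRNAs was -0.06 in the main setting, -0.20 without scaling and -0.19 with spike-in scaling. Relative to these, the members kept their direction. No paired analysis was possible because the labels pair no samples, apart from the slide-column block above, which sets an LPS and a cesarean array of the same replicate number side by side by their position on the slide. The test of arm balance was not run because no hairpin had both arms tested, and dim 5p signals limit what can be said of them.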
